A study of Mus musculus with 6 samples.

Results

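The genes described here are those of the retinoic acid (RA) receptors, carriers and metabolism: the receptors Rara, Rarb, Rarg and Rxra, the intracellular binding proteins Crabp1 and Crabp2, the RA-degrading enzymes Cyp26a1 and Cyp26b1, the RA-producing enzyme Aldh1a2 and the uptake receptor Stra6. All 10 were found by symbol in the gene-level expression table, each in a single entry, out of 33345 entries taken for a gene symbol. They were compared between motor neurons (MNs) from 2 mouse embryonic stem cell (mESC) lines of the FVB/N background. The Hb9 line is the control (SMN2+/+;mSmn+/+, labelled wildtype). The A2 line models severe spinal muscular atrophy (SMA) and has the genotype SMN2+/+;mSmn-/-, so both lines carry the human SMN2 transgene and only A2 lacks functional mouse Smn1. Both lines also carry eGFP under the Hb9 promoter, and GFP-positive cells were sorted after 5 days in 1 µM RA and 1 µM Smoothened agonist, an activator of the hedgehog pathway. The name MNs stands for these sorted cells, as in the study, and the levels of their cell type markers are given further on. Each genotype is represented by a single mESC line, so genotype and line cannot be told apart.

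RNA was sequenced from 3 samples per genotype, but the table used here holds 1 pooled FPKM (fragments per kilobase of exon, scaled to the mapped fragments) per gene and genotype. The authors' own test results were not used. The differences below are therefore given without a replicate check, SD or test, and the number of reads behind a value is unknown. A gene was counted as lower or higher in A2 MNs when its pooled FPKM differed by at least 2-fold. This limit was passed downwards by 22.4% and upwards by 6.83% of the 14926 genes that reached 1 FPKM in a genotype and were above 0 in the other. The median log2 ratio of these genes (A2 over Hb9) was -0.29, with quartiles of -0.89 and 0.19. The targeted gene Smn1 had 137 FPKM in Hb9 and 5.26 FPKM in A2 MNs, in the direction of the labels.

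RA is made from vitamin A. Retinol enters cells through the membrane receptor STRA6, is oxidised to retinaldehyde and then to RA by enzymes such as ALDH1A2, and RA is cleared by CYP26 enzymes. CRABP1 and CRABP2 bind RA inside the cell, and RA acts through heterodimers of a retinoic acid receptor (RAR) and a retinoid X receptor (RXR), which bind direct repeats in DNA called RA response elements. In the embryo RA from the mesoderm next to the neural tube patterns the hindbrain and spinal cord, and in culture it is added to give mESCs a spinal identity on the way to MNs. Here RA was supplied in the medium to both lines.

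Rarb and Cyp26a1 are long-known direct targets of RA receptors, so the stretches before their start sites are shown, with that of Crabp1, the member with the largest difference. Each line gives the 100 bases before the RefSeq start of transcription on the strand of the gene. Capitals mark repeat units that stand in a direct repeat with a spacer of 1, 2 or 5 bases. The units searched on either strand were AGGTCA, its variant AGTTCA, and the same units starting with G, namely GGGTCA and then also GGTTCA. Rarb lies on the minus strand at chr14:16575477-16575576, Cyp26a1 on the plus strand at chr19:37697708-37697807 and Crabp1 on the plus strand at chr9:54764648-54764747, all in the build GRCm38.p6.
Rarb: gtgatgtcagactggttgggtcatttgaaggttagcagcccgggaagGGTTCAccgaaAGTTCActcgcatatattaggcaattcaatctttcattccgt
Cyp26a1: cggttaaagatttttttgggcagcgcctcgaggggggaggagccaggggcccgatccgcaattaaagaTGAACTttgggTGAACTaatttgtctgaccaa
Crabp1: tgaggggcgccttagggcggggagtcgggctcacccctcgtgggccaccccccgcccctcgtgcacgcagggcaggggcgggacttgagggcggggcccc

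The repeat of Rarb spans 53 to 37 bases before the start and reads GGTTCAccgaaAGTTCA. That of Cyp26a1 spans 32 to 16 bases before the start and reads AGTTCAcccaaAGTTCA on the opposite strand. Both have a spacer of 5 bases. RefSeq windows of 250 bases before to 50 bases after a start were found for 9 of the 10 members (17 windows, none for Crabp2), and 2 members had such a repeat. Among all 27025 genes with a window 0.688% had one, and 0.115% had one with a spacer of 5. The 2 members are those introduced above as long-known targets, so no enrichment can be read from these shares. Of 12 other RA target genes with a window, listed further on, 0 had one, from which nothing can be read beside that share. The other windows of the members, among them that of Crabp1, did not hold these letters, which says nothing about elements elsewhere.

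Across the members, 7 of 10 were lower in A2 MNs by the 2-fold limit, 1 (Rarg) was higher, and Rxra and Cyp26a1 lay within the limit. The background for these counts is the 22.4% of all genes that were lower and the 6.83% that were higher. The median log2 ratio of the members was -1.69, and their range ran from -3.68 for Crabp1 to 2.39 for Rarg. The same 7 and 1 members passed the limit when ratios were centred on the median gene. The log2 ratio was below 0 for 9 of the 10 members, as it was for 65.9% of all genes. The entry of the exception, Rarg, carries a flag of numerical failure that is described below. The ratios differed in size, and the members are described by role in what follows.

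**Figure D1:**
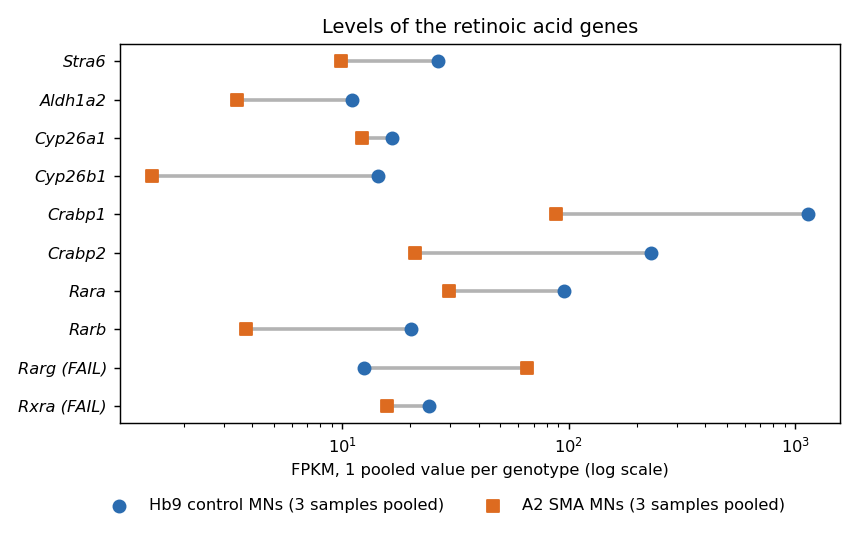
Pooled FPKM of the 10 retinoic acid genes (log axis) in Hb9 MNs (circles) and A2 MNs (squares), joined by a line for each gene, with 1 value per genotype and no error bars. Crabp1 and Crabp2 have the highest levels in Hb9 MNs (1134 and 231 FPKM), and Rarg is the only gene whose square lies to the right of its circle (12.5 and 65.5 FPKM); FAIL marks the 2 genes for which the authors' software reported a numerical failure.

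Stra6 takes up retinol from its carrier in blood. Its locus spans positions 57876484 to 58003896 of chromosome 9 in NCBI m37, the build of the table. Stra6 had 26.6 FPKM in Hb9 MNs and 9.88 FPKM in A2 MNs, a log2 ratio of -1.43 or 2.69-fold lower. The assembled locus of 127 kb is also that of Ccdc33, at 1.54 and 0.774 FPKM, and of 2 transcripts near or at 0 FPKM. Of all genes, 14.1% had a lower log2 ratio than Stra6.

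Aldh1a2 (chromosome 9, 71063596 to 71144050), the main RA-producing enzyme of the embryonic trunk, had 11.1 FPKM in Hb9 MNs and 3.44 FPKM in A2 MNs. The log2 ratio was -1.69. Aldh1a2 was the member with the lowest level in Hb9 MNs. It supplied 95.3% of the summed FPKM of Aldh1a1, Aldh1a2 and Aldh1a3 in Hb9 MNs and 86.5% in A2 MNs, because Aldh1a1 (0.307 and 0.178 FPKM) and Aldh1a3 (0.236 and 0.360 FPKM) were under 1 FPKM in both genotypes. Whatever the genotype, Aldh1a2 was thus the retinaldehyde dehydrogenase with the highest level among these 3.

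The RA-degrading enzymes differed from each other. Cyp26a1, on chromosome 19 from 37772220 to 37776018, had 16.6 FPKM in Hb9 MNs and 12.2 FPKM in A2 MNs. Its log2 ratio was -0.44, the smallest in size among the members and -0.15 relative to the median gene. Cyp26b1, on chromosome 6 from 84521413 to 84543740, had 14.4 and 1.45 FPKM. Its log2 ratio was -3.31, or 9.89-fold lower, and 3.29% of all genes had a lower one. The levels of Cyp26a1 and Cyp26b1 were therefore close to each other in Hb9 MNs (a ratio of 1.15) and 8.38-fold apart in A2 MNs. Cyp26c1, which is next to Cyp26a1 on the chromosome, had 0.260 and 0.335 FPKM. Of the summed FPKM of the CYP26 genes, Cyp26a1 made up 53.1% in Hb9 and 87.2% in A2 MNs.

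Cyp26a1 and Rarb, whose start sites are preceded by the repeats shown above, also differed from each other. Rarb was 5.32-fold lower in A2 MNs and Cyp26a1 was 1.36-fold lower. Both levels are pooled values, and the difference between these ratios was not tested.

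The binding proteins Crabp1 and Crabp2 hold RA in the cytosol. CRABP2 passes it on to the receptors in the nucleus, and CRABP1 is linked to its sequestration and breakdown. Crabp1, on chromosome 9 from 54612555 to 54620918, had 1134 FPKM in Hb9 MNs and 88.3 FPKM in A2 MNs. By level it was number 17 of the 14926 genes in Hb9 MNs and number 1367 in A2 MNs, and it remained the most abundant member in both. Crabp2, on chromosome 3 from 87752588 to 87757298, had 231 and 21.0 FPKM, number 317 and number 5772 by level. Crabp1 was 12.8-fold and Crabp2 11.0-fold lower in A2 MNs, with log2 ratios of -3.68 and -3.46, the lowest of the members. Both were lower by a similar factor, so that Crabp1 was 4.91 times the level of Crabp2 in Hb9 MNs and 4.21 times in A2 MNs.

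The binding proteins were also set beside genes abundant in Hb9 MNs, a group chosen by level in the genotype where both are high. Over all genes, 2.39% had a lower log2 ratio than Crabp1 and 2.92% a lower one than Crabp2. Of the 1383 genes with at least 100 FPKM in Hb9 MNs, 32 had a log2 ratio at or below that of Crabp1 and 39 at or below that of Crabp2, each count including the gene itself. The genes nearest to Crabp1 by log2 ratio in this group were Nr2f1 (-3.69), Nsg2 (-3.70) and Rgma (-3.57). Those nearest to Crabp2 were C1ql1 (-3.47), BC005764 (-3.48) and Sox11 (-3.43). These genes were picked by that ratio, so their likeness is given by the choice. With 1 value per genotype, it also rests on a single ratio per gene.

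**Figure D2:**
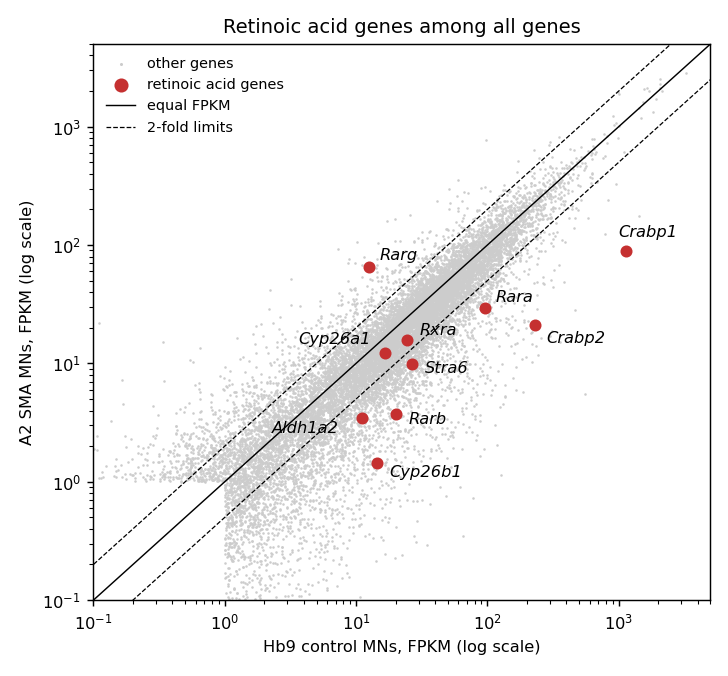
Pooled FPKM of each gene in A2 MNs against Hb9 MNs (log axes), with the 14926 genes in grey (those outside the axes are not drawn), the 10 retinoic acid genes in red, the line of equal FPKM and the 2-fold limits. Crabp1, Crabp2 and Cyp26b1 lie far below the lower limit (12.8-, 11.0- and 9.89-fold), Rarg lies above the upper one, and Rxra and Cyp26a1 lie between the limits.

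The RA receptors differed in direction. Rara, on chromosome 11 from 98789132 to 98836256, encodes RARα, the most broadly expressed RAR, and had 95.4 FPKM in Hb9 MNs and 29.7 FPKM in A2 MNs (log2 ratio -1.69). Rarb, on chromosome 14 from 17263356 to 17651381, encodes RARβ and had 20.1 and 3.77 FPKM (log2 ratio -2.41). Rarg, on chromosome 15 from 102065369 to 102087948, encodes RARγ and had 12.5 and 65.5 FPKM (log2 ratio 2.39, 5.23-fold higher). Rara and Rarb were thus lower and Rarg was higher in A2 MNs. Only 1.05% of all genes had a higher log2 ratio than Rarg.

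The summed FPKM of Rara, Rarb and Rarg was 128.0 in Hb9 MNs and 98.9 in A2 MNs, a 1.29-fold difference. Within that sum the order of the receptors was not the same. Rara made up 74.5% of it in Hb9 MNs and 30.0% in A2 MNs, and Rarb made up 15.7% and 3.81%. The share of Rarg was 9.78% in Hb9 MNs and 66.2% in A2 MNs. Rara had 7.62 times the level of Rarg in Hb9 MNs, whereas Rarg had 2.21 times the level of Rara in A2 MNs. Rarg moved from number 9 among the 10 members by level to number 2.

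Limits apply to Rarg and Rarb. The authors' software gave the entry of Rarg, like that of Rxra, the status FAIL, which marks a numerical failure in its comparison, as it did for 14.0% of all genes counted here. The locus of Rarb ends 55 bp from that of Top2b (132 and 51.9 FPKM). For Rarg the FPKM values are listed in spite of the status, and without entries of this status no member was higher in A2 MNs.

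Rxra, on chromosome 2 from 27531960 to 27618539, encodes RXRα, a partner of the RARs and of other nuclear receptors. It had 24.3 FPKM in Hb9 MNs and 15.7 FPKM in A2 MNs, a log2 ratio of -0.63. The other RXR genes, Rxrb and Rxrg, were read as part of the pathway lists. Rxrb had 64.8 and 43.3 FPKM (log2 ratio -0.58), and Rxrg had 2.47 and 1.12 FPKM (log2 ratio -1.14). Rxrb was the most abundant RXR gene in both genotypes, at 70.8% and 72.0% of the summed FPKM of the 3 genes. Rxra made up 26.6% and 26.1%. Unlike the RARs, the RXRs therefore kept nearly the same make-up in the pooled values.

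**Figure D3:**
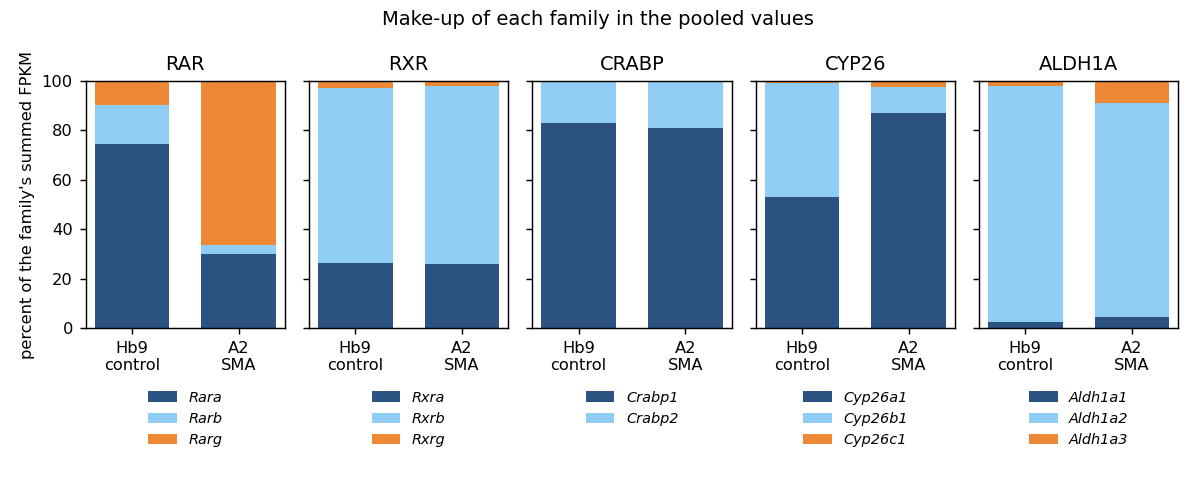
Share of each gene in the summed pooled FPKM of its family (vertical axis, percent) in Hb9 and A2 MNs, for the RAR, RXR, CRABP, CYP26 and ALDH1A genes. Rara takes the largest share of the RAR bar in Hb9 MNs (74.5%) and Rarg in A2 MNs (66.2%), and Cyp26a1 goes from 53.1% to 87.2% of the CYP26 bar, while the RXR and CRABP bars are nearly alike in both genotypes.

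The rest of the pathway was read from lists of 46 genes for carriers, enzymes, coregulators and the receptors Rxrb and Rxrg. Of their 44 loci in the table, 29 had at least 1 FPKM in either genotype, of which 5 were lower and 1 was higher in A2 MNs by the 2-fold limit. The background is 22.4% and 6.83%, and the median log2 ratio was -0.37 against -0.29 for all genes. The count of lower genes was 1 after centring on the median gene, where 16.5% of all genes were lower, and 2 with a pseudocount of 1 FPKM, where 17.2% were. The members thus had lower ratios, as a group, than these other genes of the pathway, a difference that was not tested.

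Among retinol carriers, Rbp4, the carrier of retinol in blood and the ligand of STRA6, had 24.1 FPKM in Hb9 and 10.6 FPKM in A2 MNs (log2 ratio -1.19). Ttr, which binds the RBP4 complex in blood, had 0.841 and 1.19 FPKM. Rbp4 was thus close to Stra6 by level in both genotypes.

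Of 15 genes for oxidoreductases that interconvert retinol and retinaldehyde, 10 had at least 1 FPKM, and their median log2 ratio was -0.48. The most abundant were Adh5 (162 FPKM in Hb9 and 170 FPKM in A2 MNs), Rdh11 (42.0 and 21.5 FPKM), Rdh13 (26.4 and 19.1 FPKM) and Rdh5 (24.1 and 17.0 FPKM). Rdh13 and Rdh5 share their entries with other genes. The limit was passed by Rdh14 (log2 ratio -1.03), Dhrs3 (-1.09) and Adh4 (1.44, at 0.556 and 1.51 FPKM), which are named because they passed it. These are 2 lower and 1 higher of 10, near the 22.4% and 6.83% of all genes. With a pseudocount of 1 FPKM none of the oxidoreductases passed it in either direction, and after centring none was lower. Dhrs3 reduces retinaldehyde back to retinol and is itself induced by RA. Of the storage and cleavage genes, Dgat1 alone was above 1 FPKM (35.7 and 24.9 FPKM), and Fabp5, another carrier of RA, had 1.51 and 1.40 FPKM.

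The 12 coactivators and corepressors of nuclear receptors all had at least 1 FPKM and all lay within the 2-fold limit, with a median log2 ratio of -0.23. The median turned to 0.060 when ratios were centred on the median gene, and it was -0.38 without entries of the status FAIL. Among the most abundant were Ncor1 (224 and 203 FPKM), Ncoa3 (61.3 and 89.5 FPKM) and Hdac3 (68.4 and 52.1 FPKM). The status FAIL was given to 6 of the 12.

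Of 20 genes known as targets of RA, 19 loci were above 1 FPKM, 10 of them lower and 1 higher in A2 MNs, with a median log2 ratio of -1.09. The background for these counts is 22.4% and 6.83%. Among the most abundant were the meiotic gene Stra8 (219 and 381 FPKM, log2 ratio 0.80, status FAIL) and the Hox cofactor genes Meis2 (226 and 47.9 FPKM, -2.24) and Meis1 (138 and 18.2 FPKM, -2.92). The gene past the upper limit was Tfap2c (11.1 and 68.0 FPKM, log2 ratio 2.61, status FAIL), named because it passed it. The lowest ratio, -6.79, was that of the shared locus of Hoxd3 and Hoxd4, named for that value. The list was written from general knowledge and shares genes such as Dhrs3 and Nrip1 with the lists above.

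Markers of cell types were read in the same way, beside the 22.4% of all genes that were lower and the 6.83% that were higher. Of the motor neuron markers with at least 1 FPKM, 6 of 7 were lower in A2 MNs and the reporter's own gene Mnx1 was level (41.2 and 44.2 FPKM). The FPKM of these 7 ranged from 6.85 to 108.0 in Hb9 and from 0.344 to 44.2 in A2 MNs, and the sum over all 8 loci of the list was 296 and 56.1 FPKM. Isl1 (108 and 5.95 FPKM), Lhx3 (27.6 and 0.348 FPKM) and Chat (15.5 and 0.344 FPKM), which define the cell type, were among those lower, so that Lhx3 and Chat were near 0 in the sorted A2 cells. All 8 pan-neuronal markers were lower (sums of 1016 and 55.2 FPKM), as were 6 of 8 neural progenitor markers. The progenitor markers Pax6 (22.4 and 21.4 FPKM) and Sox2 (179 and 197 FPKM) lay within the limit. All 10 markers of pluripotent cells were higher, with levels of 5.44 to 98.3 FPKM in Hb9 and 13.7 to 775 FPKM in A2 MNs and sums of 289 and 1859 FPKM. Markers of fibroblasts, which served as feeder cells, had sums of 68.8 and 35.6 FPKM. Fewer cells of a type and less RNA per cell cannot be told apart in pooled RNA, and the part of these markers in the differences of the RA genes was not tested.

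**Figure D4:**
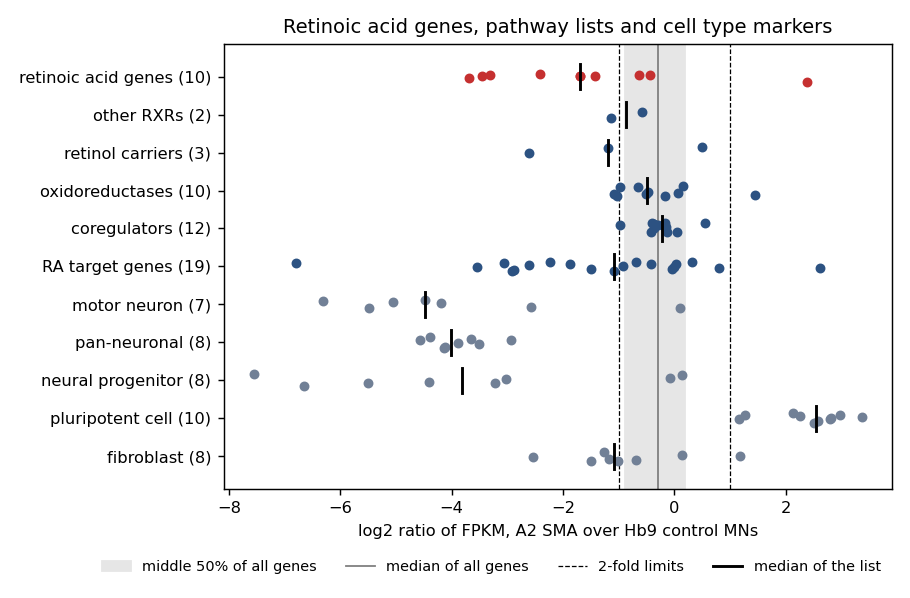
Log2 ratio of pooled FPKM (A2 over Hb9 MNs, horizontal axis) for each gene with at least 1 FPKM in the retinoic acid genes, 5 pathway lists and 5 lists of cell type markers, with the number of loci in parentheses; vertical ticks are list medians, the band is the middle 50% of all genes and dashed lines are the 2-fold limits. The retinoic acid genes (median -1.69) lie between the coregulators (-0.23) and the motor neuron markers (-4.47), and the 10 pluripotent cell markers all lie to the right of the upper limit.

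Crabp1, Stra6 and Aldh1a2 lie on chromosome 9, whose 801 genes had a median log2 ratio of -0.31, near that of all genes. Rara lies on chromosome 11, whose 1296 genes had a median of -0.47, the lowest of the chromosomes with at least 10 genes. Genes within 250 kb were read for each member. The background for their counts is the 22.4% of all genes that were lower and the 6.83% that were higher. Of the 14 neighbours of Rara, 7 were lower by the 2-fold limit and 1 was higher, with a median of -0.78 beside the -1.69 of Rara itself. The 10 neighbours of Crabp1 had a median of -0.67, and 4 of them were lower by the 2-fold limit, among them the nicotinic receptor genes Chrna5 (-3.51) and Chrna3 (-4.24). The nearest neighbours of Crabp1, Wdr61 and Dnaja4, had log2 ratios of -0.09 and -0.92. Around Crabp2, 2 of 14 neighbours were lower, among them Nes (-3.23, status FAIL), which encodes the progenitor filament protein nestin and lies 17673 bp away. The 20 neighbours of Rarg had a median of 0.41, and 5 were higher and 2 lower, with Itgb7 (2967 bp away, 0.780 and 4.72 FPKM) at 2.60. The 2 lower ones had the status FAIL. The only neighbour of Cyp26b1 above 1 FPKM, Exoc6b, had a log2 ratio of -0.34. The medians around the remaining members were -0.26 for Rarb (3 neighbours), -0.82 for Rxra (5), 0.41 for Cyp26a1 (2), 2.53 for Aldh1a2 (2) and 0.0012 for Stra6 (11). The neighbours named here were picked after their values were seen.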

How the data were processed

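RNA from FACS-collected Hb9 control and A2 MNs (3 samples per genotype) was made into TruSeq libraries and sequenced as single-end reads on an Illumina HiSeq. The authors checked reads with FastQC 0.10.1, removed adapters (CutAdapt), aligned to NCBI m37 with Ensembl annotation (TopHat 2.04), and estimated FPKM with Cufflinks and Cuffdiff. In the deposited FPKM values the 3 samples were already merged, with 1 value per entry and genotype, so the table gives no depth per sample and the reads behind a gene's value are unknown. The deposited table also holds a text flag (OK, NOTEST, LOWDATA or FAIL) per entry, which was used as given, and the authors' log2 fold change, test statistic, p, q and significance call, which were not used. Whether reads were counted by strand is not given in the sources used here.

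Symbols were split at commas, and the entry with the highest FPKM was taken per symbol. An entry that several symbols share was counted as 1 gene. Ratios were formed without a pseudocount over genes that reached 1 FPKM in a genotype and were above 0 in the other, and a 2-fold limit stood in for a call. Starts were shifted to count from 1. The counting steps were tested on simulated data. Python 3.11.15, numpy 2.4.6, pandas 2.3.3 and matplotlib 3.10.9 were used. Promoter windows came from RefSeq (GRCm38.p6) and were matched by symbol, with no coordinates carried between builds. A planned comparison of protein sequences was not run.

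The members and lists were chosen with earlier results of these data known. Named genes are the members, Smn1 and Mnx1, at most the 4 most abundant of each pathway list with at least 1 FPKM, the 3 genes nearest to Crabp1 and to Crabp2 in log2 ratio among those with at least 100 FPKM in Hb9 MNs, and genes said to be named after their values were seen. Outside this rule, other genes of the ALDH1A and CYP26 families and genes at or beside a member's locus (Ccdc33, Top2b) were also named. So were the markers Isl1, Lhx3, Chat, Pax6 and Sox2 and the locus of Hoxd3 and Hoxd4. The values of all of these were known. Marker lists covered motor neurons, pan-neuronal genes, neural progenitors, pluripotent cells, fibroblasts, endoderm, mesoderm and glia; their genes Slc18a3, Tubb3, Map2 and Sox1, not matched by symbol, were not analysed here. Alternatives were pseudocounts of 0.1 and 1 FPKM, centring on the median gene, summing the entries of a symbol, leaving out the status FAIL or shared loci, other filters on low values, and limits of 1.5- and 4-fold. Some genes that this rule would name are not reported here.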

Additional observations from a re-analysis of the deposited data

How the results depend on the processing

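No paired analysis was possible because the table holds 1 pooled value per genotype, and for the same reason no replicate could be left out. The log2 ratio of each member kept its sign and its side of the 2-fold limit under every alternative that gave it a value, with ranges of -3.68 to -3.39 for Crabp1, -3.31 to -2.65 for Cyp26b1 and 2.30 to 2.68 for Rarg. Without the status FAIL, Rarg and Rxra had no value and 0 members were higher. With limits of 4-fold and 1.5-fold, 4 and 8 members were lower, while 8.88% and 35.4% of all genes were lower and 1.80% and 12.7% were higher. A pseudocount of 1 FPKM brought the share of higher genes to 4.28%, and centring on the median gene to 10.4%. Of all genes past the 2-fold limit, 23.4% were higher, and 38.8% after centring. Centring turned the median of the coregulators from -0.23 to 0.060, and without the status FAIL it was -0.38. The median of the RA target genes was -0.98 with a pseudocount of 1 FPKM, -0.80 after centring and -0.80 without shared loci. It was -1.69 with a filter of 5 FPKM and -1.50 without the status FAIL. After centring 2 of the RA target genes were higher, against 0 without the status FAIL. For the carriers, enzymes, coregulators and the other RXR genes together, the number lower was 2 with a pseudocount of 1 FPKM, 1 after centring and 9 without a filter, and the number higher was 0 with a pseudocount of 1 FPKM or a filter of 5 FPKM and 2 without a filter. For the oxidoreductases alone, 0 were lower with a pseudocount of 1 FPKM or after centring, and 0 were higher with that pseudocount or a filter of 5 FPKM, against 2 without a filter. Over all pathway lists, the number higher was 1 with a pseudocount of 1 FPKM, with a filter of 5 FPKM or without the status FAIL. Where an alternative leaves out entries, fewer genes were counted; the cause was not tested otherwise. The number of reads behind low values such as that of Cyp26b1 in A2 MNs (1.45 FPKM) is unknown, so their counting error could not be given.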

Other observations

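Markers of other lineages were lower or mixed in A2 MNs. Of the endoderm markers with at least 1 FPKM, 3 of 6 were lower by the 2-fold limit and 0 were higher, with a sum of 195 FPKM in Hb9 and 48.4 FPKM in A2 MNs. For mesoderm, 3 of 4 were lower and the sums were 28.1 and 32.2 FPKM. For glia, 3 of 4 were lower, with sums of 48.3 and 16.8 FPKM. Of 8 fibroblast markers, 5 were lower and 1 was higher. Of all genes, 22.4% were lower and 6.83% higher.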
